A study of Mus musculus with 8 samples.

Results

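The genes of the proteasome, the protease complex that degrades ubiquitin-tagged proteins, were followed in gut intraepithelial lymphocytes (IELs), the T cells that sit within the lining of the intestine. Members were the rows whose symbol begins with Psma, Psmb, Psmc, Psmd, Psme, Psmf or Psmg and a digit, with an average of at least 10 raw counts. Of 25230 gene symbols 48 met this rule, and 2 more carried such a symbol but fell under the minimum: Psmb11 (mean 7.13 counts), the catalytic subunit of the thymus, and Psma8 (mean 2.38 counts), a subunit of the testis. The member closest to the minimum was Psmc3ip, with a mean of 264 counts, which shares the symbol but encodes a partner of meiotic recombination proteins and not a proteasome subunit. RNA was sequenced from 8 C57BL/6J mice, whose age and sex the labels do not state. All 8 had received 35 µg of anti-CD3, so that the control mice carried T cell activation too. The PBS group (4 mice) received PBS besides, and in the Ex4 group (4 mice) exendin-4, an agonist of the GLP-1 receptor, was given at 10 nmol/kg. Cells were harvested 3 hours later and sorted on CD45, a marker of all leukocytes, with no further gate in the labels, so each value is an average over the sorted cells. There was no group without anti-CD3, and the effect of activation itself was not measured.

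The proteasome consists of a barrel, the 20S core, and a cap, the 19S particle. The core stacks rings of alpha subunits, which gate the entry, on rings of beta subunits, of which the beta1, beta2 and beta5 places cut peptide bonds. The cap binds ubiquitin chains, removes them and unfolds the substrate with a ring of ATPases. In lymphocytes and in cells exposed to interferon gamma, the catalytic places are taken by the immune subunits encoded by Psmb9 (beta1i), Psmb10 (beta2i) and Psmb8 (beta5i) in place of Psmb6, Psmb7 and Psmb5, which changes the peptides offered to MHC class I.

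Levels are in CPM, counts after scaling of the libraries to a common size, and values after ± are SDs over the 4 libraries of a group unless stated otherwise. Total counts ran from 13386889 (Ex4 4) to 31843413 (Ex4 3), and members had 151 or more counts in every library. All 48 passed the filter on low counts, as did 14691 genes in all. T cell genes were abundant in all libraries, the 7 T cell and IEL markers summing to between 5867 and 6888 CPM. This sum includes Ptprc, the gene of the sort marker CD45, at 1088 to 1538 CPM. Cd3g, which encodes a chain of the T cell receptor complex, had 1598 to 2501 CPM. The 48 members together, Psmc3ip included, took between 0.931% (Ex4 4) and 1.147% (PBS 1) of all counts. Each library is 1 mouse, so that p-values measure the spread between mice.

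Per length of exon, the members covered a wide range although core subunits enter the particle in equal numbers. Divided by the total length of merged GENCODE exons, Psmb6 had the highest mean level, 299.5 ± 37.0 CPM per kb (SD over 8 libraries), followed by Psme2, a subunit of the activator PA28, at 288 ± 39.8 CPM per kb. These neighbours did not differ beyond their spread, and each was the highest member in some libraries, Psmb6 in 5 and Psme2 in 3. With the coding length in place of the exons the order changed, with Psma7 (812) and Psmb8 (801) above Psmb6 (785) and Psme2 (709.7). The lowest means over merged exons belonged to Psmd9, an assembly chaperone of the cap, at 4.66 ± 0.781 CPM per kb, and to Psme4, which encodes the activator PA200, at 4.98 ± 0.684 CPM per kb. By longest transcript Psme4 (6.43) and Psmc3ip (9.19) lay below Psmd9 (12.8), and by coding length Psmd9 was at 50.7, above Psme4 (7.55) and several others. Median levels per kb were 116.8 in the alpha ring, 112 in the structural beta subunits and 106 in the ATPases. They were lower, at 60.4, in the other cap subunits and lowest in the assembly chaperones of the core (29.2) and of the cap (17.7). By coding length the cap chaperones were again lowest (84.5), but the constitutive catalytic genes (92.1) lay below the core chaperones (93.2). Psmb7 was the lowest gene of its ring, at 12.6 ± 1.25 CPM per kb of exon and at 51.7 by coding length, where Psmb5 was at 92.1. How the read counter treated reads shared with processed copies of these genes is not given in the sources used here.

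**Figure D1:**
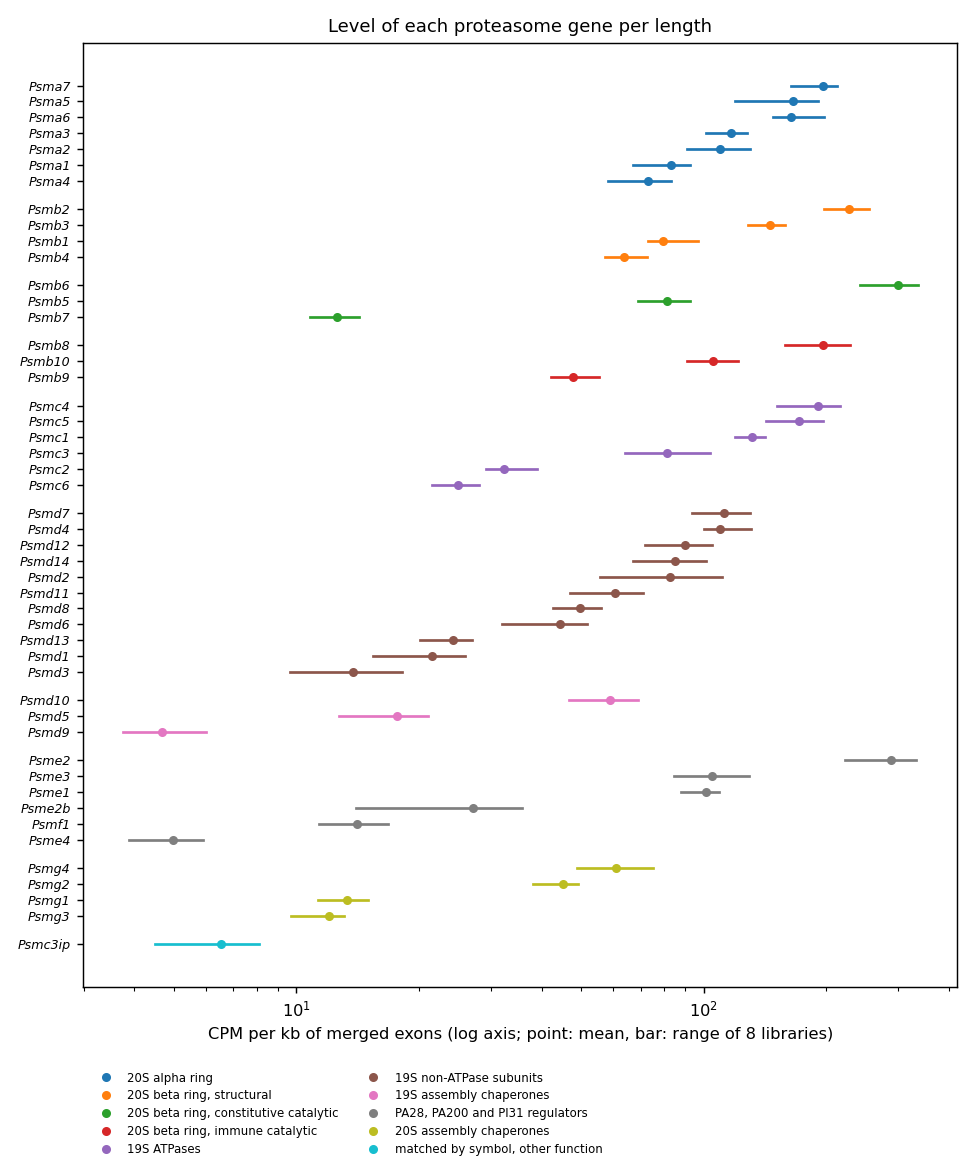
Level of each of the 48 genes in CPM per kb of merged exons (horizontal log axis), grouped by role. Points are means and bars the range over 8 libraries; Psmb6 and Psme2 lie at the right end near 299.5 and 288, and Psmd9 and Psme4 at the left end below 5.

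Exendin-4 moved none of the 48 genes past the test. In the edgeR quasi-likelihood test 0 members passed an adjusted p of 0.05 (Benjamini-Hochberg over all 14691 genes, of which 0.0136% were called), with adjusted p-values from 0.674 to 0.999. At an unadjusted p below 0.05 there were also 0 members, against 7.61% of all genes. DESeq2 and limma-voom called 0 members as well, and 83 and 1 of all 14691 genes, respectively. Neither had a member at an unadjusted p below 0.05. With other edgeR settings up to 6 members did, the most with total counts as a covariate (6), with total counts scaling (4) and without PBS 3 (4). The share of all genes at this limit was not counted under those settings, so whether these counts exceed it is not known. The groups did not overlap for 1 member, Psmd1, or 2.08% of the members, where 4.95% of all genes tested had groups apart. Fold changes were small: the fitted log2 fold changes ran from -0.31 for Psmd2 to 0.21 for Psmg3, and their median SE was 0.135.

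The intervals bounded the size of any change. For 48 of 48 members the 95% interval of the fold change lay within a 2-fold change in either direction, as it did for 60.2% of all genes tested. Within a 1.5-fold change lay 46 of 48, against 35% of all genes, and the exceptions were Psmd2 (lower bound -0.68 on the log2 scale) and Psme2b (lower bound -0.75). The median within-group SD of the members was 0.16 on the log2 scale, against 0.342 over all genes. These comparisons with all genes were not matched for level. Mean levels of the members ran from 11.9 to 663 CPM, whereas the genes tested reached down to 0.289 CPM, where low counts widen SDs and intervals. Whether members differ from other genes of like level was not tested.

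More members leaned down than up. The fitted log2 fold change was below 0 for 35 of 48 members (72.9%), where 47.1% of all genes tested had a value below 0, and the median was -0.09 over the members and 0.02 over all genes. Under the other 3 scalings of the libraries 34 to 37 members were below 0. In sorted cells taken as a bulk, fewer cells of a type and less RNA per cell cannot be told apart. The lean rested in part on 1 library: without Ex4 4, the shallowest, 30 of 48 members were below 0 and the median was -0.04.

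**Figure D2:**
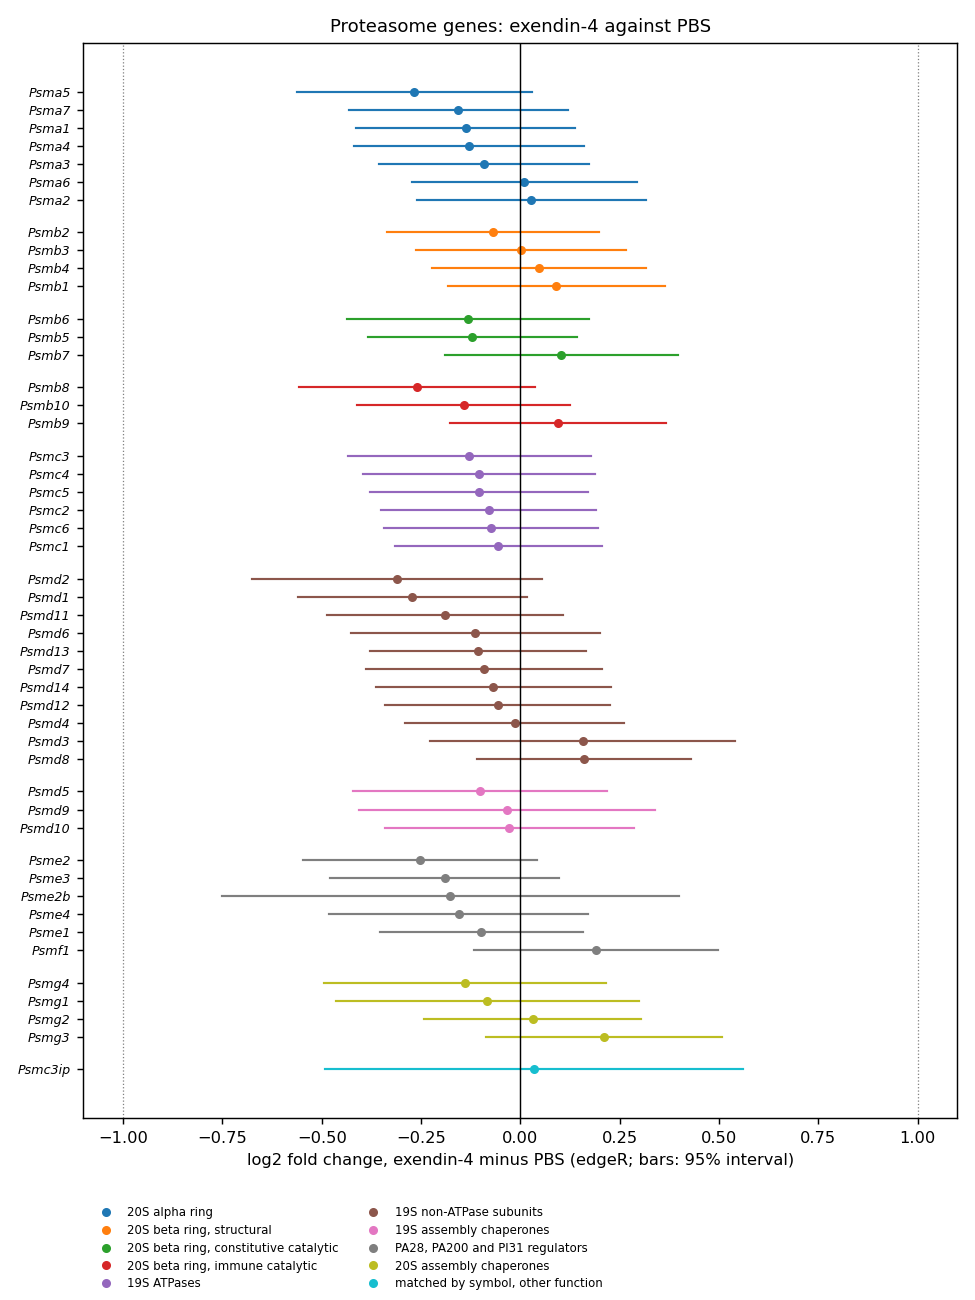
Fitted log2 fold change of exendin-4 against PBS (horizontal axis) with its 95% interval for each of the 48 genes, grouped by role. Dotted lines mark a 2-fold change; all intervals lie between them and all cross 0.

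Among the catalytic genes, the largest immune transcript was that of Psmb8. In PBS libraries 1 to 4 it had 772, 773, 647 and 698 CPM, and in Ex4 libraries 1 to 4 it had 537, 714, 629 and 535 CPM. Ex4 1, Ex4 3 and Ex4 4 lay below every PBS library, whereas Ex4 2 lay among them. The log2 fold change was -0.26 (SE 0.14, 95% interval -0.56 to 0.04, edgeR adjusted p = 0.691). Psmb5, the constitutive gene of the same beta5 place, had 78.5, 70.7, 71.7 and 83.3 CPM with PBS and 71.1, 71.7, 74.7 and 61.9 CPM with exendin-4. Its groups overlapped as well, with a log2 fold change of -0.12 (SE 0.12).

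At the beta1 place, Psmb9 had 183, 183, 154 and 156 CPM with PBS and 161, 203, 184 and 174 CPM with exendin-4. The groups overlapped, with a log2 fold change of 0.09 (SE 0.13), and Psmb9 was the only one of the 3 immune genes with a positive value. Its constitutive counterpart Psmb6 had 587, 616, 592 and 549.8 CPM with PBS and 454, 628, 602 and 456 CPM with exendin-4. Here Ex4 1 and Ex4 4 were again the low libraries, and the other Ex4 libraries lay within or above the PBS range (log2 fold change -0.13, SE 0.14). At the beta2 place, Psmb10 had 207, 192, 181 and 175 CPM with PBS and 158, 196, 155 and 175 CPM with exendin-4 (log2 fold change -0.14, SE 0.13). Psmb7, its constitutive counterpart, was the least abundant of the 6, at 41.4 ± 4.78 and 44.5 ± 3.64 CPM (log2 fold change 0.10, SE 0.14). None of the 6 passed the edgeR test, with adjusted p-values from 0.691 to 0.924.

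**Figure D3:**
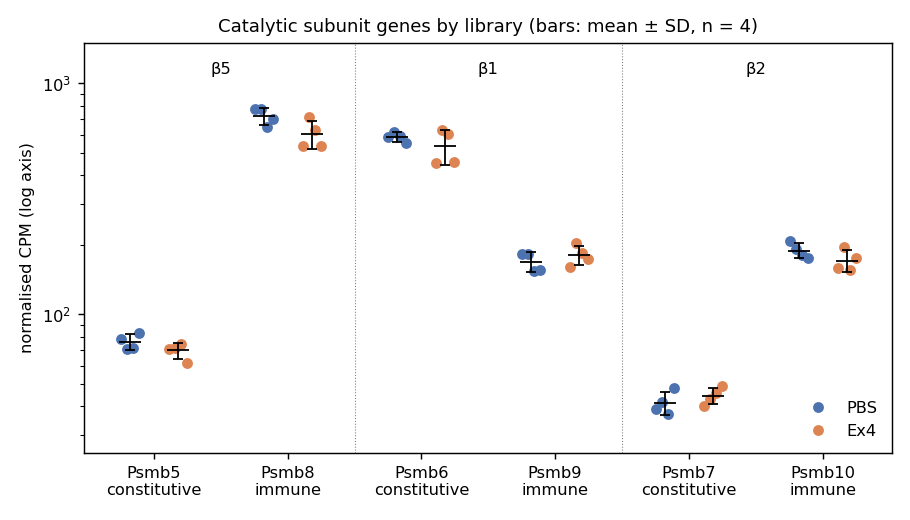
Normalised CPM (log axis) of the constitutive and immune catalytic genes in each library, by place in the beta ring, with group means and SDs (n = 4). Psmb8 lies above Psmb5 and Psmb10 above Psmb7, while Psmb9 lies below Psmb6; the PBS and Ex4 points overlap for each gene.

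Per length, immune transcripts exceeded constitutive ones at 2 of the 3 catalytic places. Psmb8 stood above Psmb5 in 8 of 8 libraries, at 2.42 ± 0.288 times its level per kb (SD over 8 libraries), and Psmb10 above Psmb7 in 8 of 8, at 8.50 ± 1.403 times. The order was the other way at beta1, where Psmb9 was at 0.161 ± 0.0198 times the level of Psmb6 and lower in 8 of 8 libraries. The order at each place was the same with 2 other definitions of gene length, but the sizes moved: with the longest transcript the ratios were 4.29, 9.21 and 0.105, and with the coding length 8.70, 4.30 and 0.342, for beta5, beta2 and beta1. Summed over the places, immune genes made up between 43.9% (Ex4 3) and 49.2% (PBS 1) of the catalytic level per kb of exon, and the groups overlapped. The share was 41.5% to 46.9% with the longest transcript and 55.3% to 60.2% with the coding length, so that which kind made up the larger part turned with the length used. These are transcript levels, and which subunits were built into particles was not measured.

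The balance of immune and constitutive genes was compared within each library as the ratio of their counts, which needs no scaling between libraries. The ratio of Psmb9 to Psmb6 was 0.312, 0.297, 0.260 and 0.284 in PBS libraries 1 to 4 and 0.353, 0.323, 0.306 and 0.383 in Ex4 libraries 1 to 4. All Ex4 libraries except Ex4 3 lay above all PBS libraries, and Ex4 3 lay just under PBS 1. The log2 ratio was -1.80 ± 0.11 with PBS and -1.56 ± 0.14 with exendin-4, a difference of 0.24 (95% interval -0.03 to 0.56 by inversion of the test). It did not pass, with p = 0.0571 in an exact permutation test (two-sided) and 0.171 after Benjamini-Hochberg adjustment over the 3 ratios, where 70 assignments allow no p below 0.0286. The groups met only through Ex4 3 and PBS 1: without Ex4 3 the difference was 0.29 (exact permutation p = 0.0286, adjusted 0.0857), and without PBS 1 it was 0.28 (exact permutation p = 0.0571, adjusted 0.171). Leaving out either of these libraries sets the groups apart by itself. Without Ex4 3 the exact permutation p was the smallest that the test on the remaining libraries can give. With any other library left out the exact permutation p was 0.0857 or 0.114.

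The other places leaned the opposite way. The ratio of Psmb8 to Psmb5 was 9.84, 10.9, 9.03 and 8.38 with PBS and 7.56, 9.95, 8.42 and 8.64 with exendin-4. The groups overlapped, with a difference of log2 ratios of -0.14 (95% interval -0.53 to 0.25, exact permutation p = 0.286, adjusted 0.286). The ratio of Psmb10 to Psmb7 was 5.33, 4.58, 4.90 and 3.65 with PBS and 3.94, 4.54, 3.39 and 3.58 with exendin-4. PBS 1 to 3 lay above every Ex4 library and PBS 4 among them, for a difference of -0.25 (95% interval -0.65 to 0.31, exact permutation p = 0.114, adjusted 0.171). Whether the beta1 difference differs from the others was not tested.

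**Figure D4:**
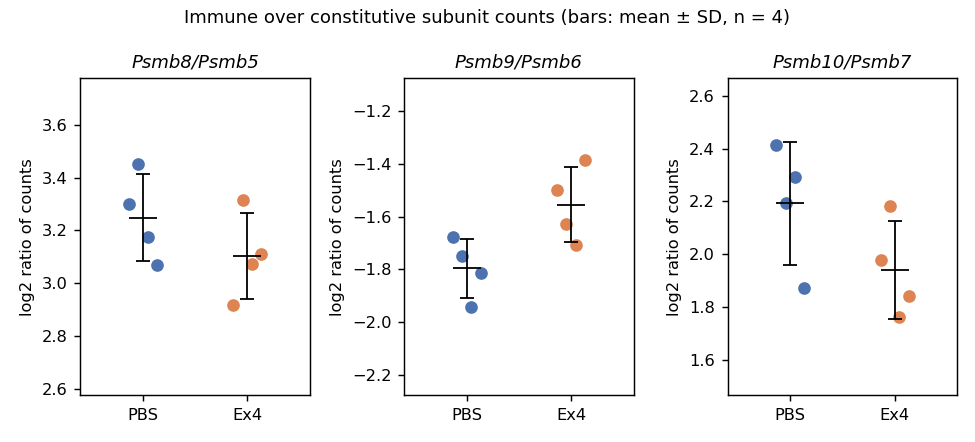
Log2 ratio of immune to constitutive counts (vertical axes of equal span) in each PBS and Ex4 library for the beta5, beta1 and beta2 places, with means and SDs (n = 4). Ex4 points sit higher for Psmb9/Psmb6 and lower for the other ratios, with overlap in each panel.

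Psmb9 and Psmb8 lie in the MHC class II region together with the genes of the peptide transporter TAP, which carries proteasome products into the endoplasmic reticulum. In GRCm38, the assembly also named mm10, Psmb9 spans chr17:34182030-34187330 on the minus strand and Tap1 chr17:34187556-34197225 on the plus strand, so that 225 bases lie between their start sites. Psmb8 follows at chr17:34198195-34201454 and Tap2 at chr17:34204479-34216321. Counts cover each whole gene. The shared stretch and the 250 bases before the starts of Psmb8 and of its constitutive counterpart Psmb5 (chr14:54614120-54617995, minus strand) are shown because these genes carry the comparison of immune with constitutive subunits. They are given 5′ to 3′ in the sense of Tap1, Psmb8 and Psmb5, respectively, as RefSeq gives them for GRCm38.p6. Capitals mark matches on either strand to the core of the cAMP response element CRE (TGACG), the antioxidant response element of NRF1 and NRF2 (TGACNNNGC), the STAT site GAS (TTCNNNGAA), the GC box (GGGCGG) and the CCAAT box (CCAAT).
Psmb9-Tap1, chr17:34187331-34187555: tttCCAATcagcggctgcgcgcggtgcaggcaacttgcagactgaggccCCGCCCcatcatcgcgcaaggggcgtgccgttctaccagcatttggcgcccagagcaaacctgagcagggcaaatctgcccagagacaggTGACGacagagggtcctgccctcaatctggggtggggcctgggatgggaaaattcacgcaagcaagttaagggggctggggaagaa
Psmb8, chr17:34197945-34198194: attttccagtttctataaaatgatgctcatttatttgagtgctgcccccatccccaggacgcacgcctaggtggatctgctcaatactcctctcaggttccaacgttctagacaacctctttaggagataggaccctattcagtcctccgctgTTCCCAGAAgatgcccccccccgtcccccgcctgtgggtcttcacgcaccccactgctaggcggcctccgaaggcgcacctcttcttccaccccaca
Psmb5, chr14:54617996-54618245: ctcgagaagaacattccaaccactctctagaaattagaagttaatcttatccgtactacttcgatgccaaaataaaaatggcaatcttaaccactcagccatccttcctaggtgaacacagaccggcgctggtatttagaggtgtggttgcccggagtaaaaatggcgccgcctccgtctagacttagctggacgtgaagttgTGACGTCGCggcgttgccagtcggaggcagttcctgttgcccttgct

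The stretch between Psmb9 and Tap1 held 1 CRE core, 1 GC box and 1 CCAAT box, and 0 matches to the other motifs, the interferon response element ISRE (GAAA, 2 bases of any kind, GAAA) included. The Psmb8 window held a GAS match, and the Psmb5 window an antioxidant element that overlaps a CRE core. Windows of 250 bases were searched for the 41 members with a window in the RefSeq promoter table, beside 27025 genes in all. The CRE core occurred in 36.6% of the members' windows and in 17.9% of all windows, and the GC box in 53.7% and 32.9%. The members' windows were also richer in G and C (median 57.2% against 52%), and whether that accounts for these shares was not tested. The full CRE (TGACGTCA) was in 0 member windows and in 1.62% of all, the antioxidant element in 12.2% and 10.1%, the ISRE in 7.32% and 3.04%, GAS in 4.88% and 7.18%, and the CCAAT box in 34.1% and 34.5%. A match is a run of letters and not a bound site.

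The transporter genes of this block showed wide overlap between the groups. Tap1 had 336, 319, 261 and 257 CPM with PBS and 294, 309.5, 322 and 246 CPM with exendin-4. PBS 1 and PBS 2 were the higher PBS libraries for Tap1, as they were for Psmb9 and Psmb8. The log2 fold change of Tap1 was -0.00 (SE 0.14), beside 0.09 for Psmb9, -0.26 for Psmb8 and -0.13 for Tap2. None of them passed the edgeR test (adjusted p from 0.691 to 0.998).

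In the alpha ring 0 of 7 genes passed and 5 were below 0 (median log2 fold change -0.13). Psma5, which encodes the alpha5 subunit, had the smallest p of the ring, at 253, 242, 219 and 242 CPM with PBS and 189, 214, 235 and 157 CPM with exendin-4. Of the Ex4 libraries Ex4 3 reached into the PBS range and the other 3 lay below it, with a log2 fold change of -0.27 (SE 0.14, edgeR adjusted p = 0.686). The most abundant alpha gene, Psma7 (alpha4), was at 637 ± 14.5 and 571 ± 68.0 CPM. The 4 structural beta genes had a median of 0.02, with 1 below 0. Psmb1 had 353.6 ± 12.5 and 376 ± 47.3 CPM, where 445 CPM in Ex4 3 was the highest value.

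In the cap 0 of 17 subunit genes passed and 15 were below 0. All 6 ATPase genes, whose products pull the substrate into the core, were below 0 within a narrow band, from -0.13 for Psmc3 to -0.06 for Psmc1. Psmd1 and Psmd2 encode the large scaffold subunits that receive ubiquitin and its carriers. Psmd1 had 170.0, 189, 167 and 159.8 CPM with PBS and 145, 152, 158.5 and 112 CPM with exendin-4, so that PBS 4 and Ex4 3 nearly touched while the groups stayed apart. Its log2 fold change was -0.27 (SE 0.13, 95% interval -0.56 to 0.02, edgeR adjusted p = 0.674), the smallest adjusted p of the 48 genes. Among all genes tested 2.66% had every Ex4 library below every PBS library. Psmd2 had the lowest fold change of all members, but its PBS libraries were far apart, with 421 and 447 CPM in PBS 1 and PBS 2 and 309 and 303 CPM in PBS 3 and PBS 4. With exendin-4 it had 297, 354, 317 and 225 CPM. The exceptions with values above 0 were Psmd8 (0.16) and Psmd3 (0.16), both of the lid. The deubiquitinase gene of the cap, Psmd14, was at 245 ± 12.8 and 234 ± 40.1 CPM, and the ubiquitin receptor gene Psmd4 at 310.1 ± 39.3 and 307 ± 17.9 CPM. The genes of the cap's assembly chaperones had log2 fold changes of -0.10 for Psmd5, -0.03 for Psmd9 and -0.03 for Psmd10, which encodes gankyrin.

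Regulators that bind the core apart from the cap gave 0 calls among 6 genes. Psme1 and Psme2 encode the alpha and beta chains of PA28, which is induced by interferon gamma together with the immune subunits. Psme2 had 552, 487, 587 and 587 CPM with PBS and 431, 510.4, 524 and 392 CPM with exendin-4. Ex4 1 and Ex4 4 lay below all PBS libraries and the others within their range, with a log2 fold change of -0.25 (SE 0.14, edgeR adjusted p = 0.6995). Psme1 had 228, 236, 224 and 237 CPM with PBS and 194, 240.3, 221 and 208 CPM with exendin-4 (log2 fold change -0.10, SE 0.12). The partners differed in level per kb, 101 ± 7.17 for Psme1 and 288 ± 39.8 for Psme2 over 8 libraries. Psme2 has a copy, Psme2b, whose coding sequence is identical at 715 of 720 bases (99.3%), so that the division of reads between them is uncertain. Psme2b itself was at 11.7 CPM in PBS 1 and 15.5 CPM in Ex4 3, against 19.4 to 30.0 CPM in the other 6 libraries.

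Psme3, the nuclear form PA28 gamma, was at 330.0 ± 37.2 and 289 ± 33.8 CPM (log2 fold change -0.19, SE 0.13), and Psme4 at 44.0 ± 2.21 and 39.5 ± 7.64 CPM (-0.16, SE 0.15). Psmf1, which encodes the core-binding protein PI31, had the second highest fold change of the members, 0.19 (SE 0.14). Of the 4 core assembly chaperones, which build the alpha ring, Psmg3 had 28.1, 31.7, 36.9 and 32.2 CPM with PBS and 37.8, 36.5, 37.6 and 37.2 CPM with exendin-4. Ex4 2 lay just below PBS 3, and all other Ex4 values lay above all PBS values, for a log2 fold change of 0.21 (SE 0.14, edgeR adjusted p = 0.782). Psmg1, Psmg2 and Psmg4 had values of -0.08, 0.03 and -0.14, and Psmc3ip of 0.03.

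Other genes of the pathway, outside the symbol rule, were read from 4 lists, of 11, 12, 6 and 7 genes. In the edgeR test 0 of the genes in these lists passed in either direction, and 0 had an unadjusted p below 0.05. Ubb, a polyubiquitin gene, had a log2 fold change of 0.14 (SE 0.16). Zfand5, whose product activates the proteasome in muscle wasting, was at 56.7 ± 8.08 and 69.9 ± 7.66 CPM with groups apart (0.30, edgeR adjusted p = 0.655, and 0.19 without PBS 1). Of the 11 partners of the proteasome outside the rule 5 were below 0 and 2 had groups apart (18.2%, against 4.95% of all genes tested), Zfand5 and Ecpas, an adaptor of the particle, whose Ex4 values lay below (-0.18). Uchl5, a deubiquitinase of the cap, had a log2 fold change of -0.19. Of 12 genes of ubiquitin, its carriers and p97 8 were below 0, among them the carrier gene Rad23b (-0.32, edgeR adjusted p = 0.686). Pomp, the maturation factor of the core, was at 328 ± 25.5 and 324 ± 36.9 CPM.

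Regulators of proteasome transcription gave no call either. Nfe2l1, which encodes NRF1, the factor that raises proteasome genes when degradation is impaired, had a log2 fold change of 0.04 (SE 0.14). Of the 6 genes of this response 4 were below 0, but Mafg (-0.006) and Ngly1 (-0.002) among them lay near 0, and the median was -0.004. Values were 0.28 for Mafk, a partner of NRF1 on DNA, and -0.14 for Ddi2, the protease that activates NRF1. Among 7 genes of interferon response and class I processing 6 were below 0 (median -0.13), with Tap1 near 0 at -0.002. Irf1 (-0.16) and Nlrc5 (-0.11), which drive the immune subunits, gave no call. Tapbp, the peptide loading factor tapasin, was at 564 to 784 CPM with PBS and 519.5 to 595 CPM with exendin-4 (-0.23), and B2m, the light chain of class I, at 2126 ± 243 and 2409 ± 366 CPM (0.18).

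Within a group, many members were high or low in the same library. Taken as deviations of log2 CPM from each gene's mean over the 8 libraries, the median over the 48 genes was 0.04, 0.12, -0.01 and 0.01 in PBS 1 to 4 and -0.10, 0.05, 0.11 and -0.24 in Ex4 1 to 4. PBS 2 and Ex4 3 were therefore the high libraries, 1 in each group, and Ex4 4 and Ex4 1 the low ones. Of 48 members 26 had their lowest value in Ex4 4, where 17.7% of all genes had theirs. PBS 2 and Ex4 3 held the highest value of 14 and 13 members, and the share of all genes with their highest value there was not counted. The cap genes had mean deviations of 0.20 in PBS 2 and -0.26 in Ex4 4, where the core genes had 0.08 and -0.16, while in PBS 1 and Ex4 1 the core (0.06 and -0.15) lay further from 0 than the cap (-0.03 and -0.06). PBS 2 and Ex4 3 also had the fewest genes with a count in the table (16639 and 17116, against 17934 to 19335 in the others), and Ex4 4 had the fewest total counts. The part of depth in these deviations was not tested.

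**Figure D5:**
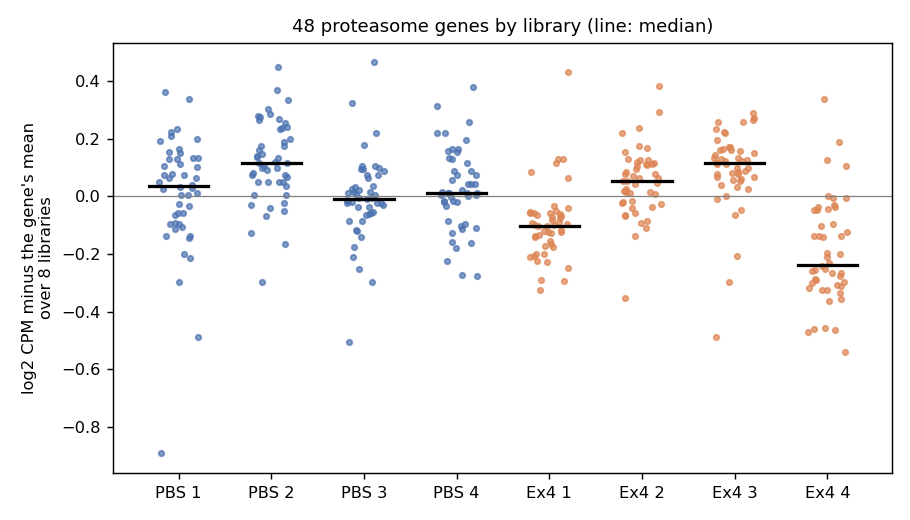
Each point is 1 of the 48 members, Psmc3ip included, in 1 library, as log2 CPM minus that gene's mean over the 8 libraries (vertical axis). Lines are medians. Ex4 4 has the lowest median, -0.24, and PBS 2 and Ex4 3 the highest, 0.12 and 0.11.

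Epithelial and other cells also express proteasome genes, and their markers differed between libraries and groups. The 12 epithelial markers, all with counts in every library, summed to between 508 and 1021 CPM with PBS and between 289 and 537 CPM with exendin-4. All 12 had a log2 fold change below 0 (median -0.63), 3 of them at an unadjusted p below 0.05 and 0 past the edgeR threshold. Between the groups they thus leaned the same way as the members. By library the sum was highest in PBS 3 (1021 CPM), where the members' median deviation was -0.01. It was 473 CPM in Ex4 4, where that deviation was lowest (-0.24), and lowest in Ex4 1 (289 CPM, deviation -0.10). Whether marker sums and deviations go together was not tested. Of the 7 T cell and IEL markers 2 were below 0 (median 0.14). Only Cd8a, the co-receptor chain of cytotoxic T cells and many IELs, had groups apart (14.3% of the list, against 4.95% of all genes tested). Its log2 fold change was -0.59 (edgeR adjusted p = 0.351), whereas Cd2 had 0.82 with overlapping groups (edgeR adjusted p = 0.586). The 6 B and plasma cell markers summed to between 833 and 1458 CPM with PBS and between 253 and 2189 CPM with exendin-4, lowest in Ex4 1 and Ex4 4 and highest in Ex4 3. The 8 myeloid markers ran from 91.4 to 163 and from 107 to 146 CPM, and the 6 stromal and endothelial markers from 53.5 to 91.7 and from 38.1 to 55.7 CPM, with Col1a2, Col3a1 and Dcn at 0 in at least 1 library. Most of the stromal and endothelial sum was Pecam1, at 49.2 to 87.3 CPM with PBS and 28.6 to 49.1 CPM with exendin-4. For Col1a1 and Kdr the groups overlapped. With the epithelial score as a term in the fit 31 of 48 members were below 0, with a median of -0.05 and 0 calls. Because the markers themselves were lower with exendin-4, the score and the treatment cannot be fully told apart in this fit. The part of B cells and of the other cells in the values was not tested.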

How the data were processed

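Raw counts, whole numbers for each gene symbol, were deposited for 8 libraries of strand-specific mRNA prepared from sorted IELs, per the labels' protocols. STAR 2.7.9a, DESeq2 and mm10 appear, without role or order, per the submitters' processing notes. For the read counter and its annotation, the sources used here give no name. Groups and replicate numbers came from the sample titles, which describe separate mice, and 0 per-sample columns were left unused.

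The whole table was fitted with edgeR 4.0.16 under R 4.3.3 (filterByExpr by group, TMM scaling, robust quasi-likelihood F test, Benjamini-Hochberg over 14691 genes, threshold 0.05). SEs were derived from the fold change and its F statistic. Ratios of catalytic genes used a prior count of 2 and an exact two-sided permutation test over 70 assignments. Alternatives were DESeq2 1.42.0, limma-voom (limma 3.58.1), other scalings, filters and covariates, libraries left out and a replicate block. The script was tested on simulated data. Exon lengths came from GENCODE M21 and coordinates and start sites from RefSeq, both of GRCm38. All 48 members were found in each. Figures used Python 3.11.15 with matplotlib 3.10.9.

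The members and lists were chosen with earlier results of these data known. Named genes were the catalytic genes, Psme1 to Psme4, the smallest p of each role, the extremes of level, and fixed or smallest-p genes of the pathway lists. Any others were named after their values were seen. A few genes of the pathway lists are not reported here, and the counts given for those lists, at an unadjusted p too, do not cover them.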

Additional observations from a re-analysis of the deposited data

Results flagged for a closer look

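Extreme libraries were sought within groups of 4 by the distance of the highest or lowest value from the next, as a share of the range, for 31 named genes, the 3 ratios and the mean deviations of the members, the core and the cap. This quotient passed Dixon's 95% limit in 3 of 74 groups, where chance passes about 1 in 20, or 3.7 of them. The mean deviation of the cap genes was high in PBS 2, at 0.20 against 0.01 for its neighbour on the log2 scale (quotient 0.834). The others were pathway genes outside the symbol rule, on the log2 CPM scale. Zfand5 was low in PBS 1 at 5.48 against 5.92 (0.987), and Rad23b, a carrier of ubiquitinated proteins, was low in Ex4 1 at 5.17 against 5.30 (0.927).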

How the results depend on the processing

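The count of 0 members called held in each of 20 alternatives, with a lowest adjusted p of 0.319 (edgeR, log2 total counts as a covariate). Few genes of any kind were called there, from 1 in several settings to 83 of 14691 with DESeq2. The median log2 fold change of the members was lowest without Ex4 3 (-0.17) and highest without Ex4 4 (-0.04). The number below 0 was 41 without PBS 3 and 30 without Ex4 4, the extremes. The replicate block gave 0 calls, a median of -0.09 and 36 members below 0. Same-numbered libraries correlated in their deviations at 0.09, -0.03, -0.24 and 0.14. The labels do not say whether the numbers pair the mice, and correlations with 4 libraries in each group cannot settle it. With the block the ratio differences were -0.14, 0.24 and -0.25 for beta5, beta1 and beta2, and 4 pairs allow no sign-flip p below 0.125. With 1 library left out they ran from -0.21 to -0.08, from 0.18 to 0.29 and from -0.36 to -0.18. The immune over constitutive levels per kb moved to 4.29 (beta5) and 0.105 (beta1) with the longest transcript, and to 8.70, 0.342 and 4.30 (beta5, beta1, beta2) with the coding length, which was added after seeing the data, as were the other lengths for the order of members and the immune share. Of 31 named genes 24 kept their sign in every alternative and 0 were called. With 1 library left out the log2 fold change ran from -0.021 to 0.12 for Psmb1, -0.19 to 0.0024 for Psmd5, -0.14 to 0.15 for Psmc3ip, -0.21 to 0.038 for Psmd9, -0.094 to 0.060 for Tap1, -0.11 to 0.019 for Pomp and -0.053 to 0.072 for Nfe2l1. With the epithelial covariate Psmc3ip was at -0.13, Pomp at 0.10 and Nfe2l1 at -0.042, and with total counts as a covariate Psmc3ip was at -0.0056. Tap1 turned to 0.00083 with limma-voom, 0.0095 with upper quartile scaling, 0.0012 with a filter of 1 CPM in 4 libraries and 0.00060 with the replicate block. Causes of these moves were not tested. Depth limits Psmc3ip most, with 151 counts in Ex4 4.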
